A study of Mus musculus with 12 samples.

Results

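Respiratory complex I, the NADH:ubiquinone oxidoreductase of the inner mitochondrial membrane, was followed in mouse embryonic fibroblasts through its subunit genes in the cell nucleus. All genes of the count files whose symbol is Ndufa, Ndufb, Ndufc, Ndufs, Ndufv or Ndufab with a number were taken, without assembly factors (Ndufaf) and pseudogenes. The rule gave 38 genes of the 55487 counted. They were 7 subunits of the catalytic core, 9 accessory subunits of the peripheral arm, 21 accessory subunits of the membrane arm, and Ndufa4, a protein later assigned to complex IV. Ndufb1 is one of the 38 because the authors' deposited table gives its identifier, ENSMUSG00000113902, that name, as RefSeq does. The GRCm38 annotation used here (GENCODE M21) instead calls it Ndufb1-ps, a non-coding transcript of a bidirectional promoter.

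The 12 libraries were made from primary fibroblast cultures of E13.5 embryos, all homozygous for a floxed Htt allele (HTTfl/fl). Cultures labelled HTT-deleted received a lentivirus with Cre recombinase and GFP, and controls a lentivirus with an H2B-eGFP fusion, so that both carried the floxed allele and a virus. The cells were harvested 7 days after transduction. From each suspension a 1 in 15 part was kept for total RNA and ribosomes were purified from the remainder for ribosome-associated RNA, which made 4 groups of 3. Replicates are, per the labels, other primary cultures or other passages of one, and the p-values rest on the spread between these. In such bulk samples, fewer cells of a type and less RNA per cell cannot be told apart.

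Complex I takes electrons from NADH through a flavin and a chain of iron-sulfur clusters to ubiquinone and pumps protons across the membrane. Its hydrophobic pumping core is encoded by mitochondrial DNA, while the redox core and all accessory subunits are translated on cytosolic ribosomes and imported. The holoenzyme is therefore put together from the products of both genomes with the help of assembly factors, and the nuclear genes are known for promoters that hold sites for NRF1, YY1 and ETS-family factors.

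Promoter sequences are shown for the 3 genes with the largest ribosome-associated excess in control cells and the gene with the lowest value (Ndufb2). Ndufa5 and Ndufb7 follow, as genes with large total RNA differences, and then Ndufb4 and Ndufa8, which hold further matches to the NRF1 motif. Each line gives the 150 bases directly upstream of the start of a RefSeq transcript (build GRCm38.p6), 5′ to 3′ on the gene's strand. Capitals mark a match on either strand to the NRF1 consensus, to AAGATGGCG (the YY1 motif) or to CCGGAAG (an ETS motif).
Ndufs6, chr13:73328483-73328632 (-): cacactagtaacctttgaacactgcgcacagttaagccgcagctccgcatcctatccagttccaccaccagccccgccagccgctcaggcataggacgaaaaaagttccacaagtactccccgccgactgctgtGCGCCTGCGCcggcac
Ndufa1, chrX:37191239-37191388 (-): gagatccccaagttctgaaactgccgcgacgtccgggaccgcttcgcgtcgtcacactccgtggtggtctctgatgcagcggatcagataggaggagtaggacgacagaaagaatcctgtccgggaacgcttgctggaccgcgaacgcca
Ndufa4, chr6:11907451-11907600 (-): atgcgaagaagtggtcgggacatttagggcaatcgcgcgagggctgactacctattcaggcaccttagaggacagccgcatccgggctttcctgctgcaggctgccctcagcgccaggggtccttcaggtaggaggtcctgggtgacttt
Ndufb2, chr6:39592415-39592564 (+): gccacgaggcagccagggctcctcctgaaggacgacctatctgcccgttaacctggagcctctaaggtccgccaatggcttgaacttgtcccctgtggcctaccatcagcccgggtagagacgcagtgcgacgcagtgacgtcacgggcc
Ndufa5, chr6:24527691-24527840 (-): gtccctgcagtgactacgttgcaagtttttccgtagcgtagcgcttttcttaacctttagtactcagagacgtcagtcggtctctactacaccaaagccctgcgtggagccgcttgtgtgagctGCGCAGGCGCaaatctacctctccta
Ndufb7, chr8:83566608-83566757 (+): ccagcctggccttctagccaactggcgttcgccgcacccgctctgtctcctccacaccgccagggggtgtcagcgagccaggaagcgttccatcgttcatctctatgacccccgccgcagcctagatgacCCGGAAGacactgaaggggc
Ndufb4, chr16:37654369-37654518 (-): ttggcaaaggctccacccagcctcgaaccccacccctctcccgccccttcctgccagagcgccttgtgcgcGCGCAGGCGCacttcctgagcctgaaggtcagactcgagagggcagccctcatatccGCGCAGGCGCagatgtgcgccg
Ndufa8, chr2:36049339-36049488 (-): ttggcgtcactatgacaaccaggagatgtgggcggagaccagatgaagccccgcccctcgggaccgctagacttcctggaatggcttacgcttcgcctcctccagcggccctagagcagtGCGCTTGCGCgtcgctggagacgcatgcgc

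The RefSeq table held a promoter window of 300 bases, 250 before and 50 after the start, for 34 of the 38 genes. The other 4 had no entry. The NRF1 consensus, a near palindrome with 1 free base, was in the windows of 7 of the 34 genes (20.6%), against 5.19% of all 27025 genes in the table. That table was not limited to coding genes. Ndufb4 had the most, at -191, -79 and -22 from the start. The YY1 letters were in 5 windows (14.7% against 1.64%) and the ETS letters in 4 (11.8% against 9.93%), and 15 of 34 genes (44.1%) held at least 1 of the motifs, against 15.1% of all genes. No match overlapped one to another motif in these windows. A match is a description of letters, and Ndufs6 was the 1 gene with 2 of the motifs.

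The YY1 matches shared a position. All 5 lay on the gene's own strand between 23 and 36 bases after the start, and in each the ATG within the match was the annotated start codon. These letters resemble part of the TISU element, known around start codons close to the 5′ end of transcripts. Its full consensus was not searched, so the 5 sites are not called TISU elements. Across all genes in the table, 0.496% had these letters at an annotated start codon within the first 50 bases, against 14.7% of the 34 complex I genes. The table was not limited to coding genes, and a gene without a start codon cannot qualify, which lowers the first share. The 5 sites are shown with up to 10 bases on each side, the match in capitals and its ATG being the start codon.
Ndufc1, chr3:51408915-51408943 (-): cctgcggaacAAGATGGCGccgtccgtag
Ndufa9, chr6:126849097-126849125 (-): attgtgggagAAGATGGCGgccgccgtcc
Ndufs7, chr10:80249463-80249491 (+): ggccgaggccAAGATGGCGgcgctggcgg
Ndufs6, chr13:73328433-73328459 (-): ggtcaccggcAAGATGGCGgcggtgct
Ndufs4, chr13:114388045-114388069 (-): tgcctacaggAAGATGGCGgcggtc

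A divergent protein-coding neighbour on the other strand was found for 13 of the 37 members annotated as coding (35.1%), against 7.92% of 22028 coding genes. Its start had to lie at most 1000 bases upstream of the gene's start, or at most 200 bases downstream of it. Examples were Mrpl36 beside Ndufs6, Eef1b2 beside Ndufs1 and Rps28 beside Ndufa7. The 38 genes were spread over 16 chromosomes.

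The libraries held 16789356 to 30571501 gene counts, and members had 33 to 4693 counts per library. Levels below are in CPM, which are counts as a share of the library's total scaled by TMM, on which 1 count was worth 0.0327 to 0.0620 CPM. Htt itself was at 45.8 to 64.6 CPM in total RNA of controls and at 10.6 to 15.5 in HTT-deleted cells, and on ribosomes at 20.1 to 32.0 and at 3.98 to 12.8, so every HTT-deleted library was below every control of its fraction. Htt itself did not pass in total RNA (log2 fold change -2.16 ± 0.24, SE; Benjamini-Hochberg adjusted p = 0.81 in edgeR's quasi-likelihood test). It nevertheless ranked first among the 14759 genes in that test. Nor did Htt pass on ribosomes (-1.78 ± 0.47), and a block for the replicate number changed this in neither fraction. Fibroblast markers summed to 23843 to 41520 CPM in every library, with none of the 10 at 0. One library stood apart, the total RNA of HTT-deleted replicate 1. Its levels, as deviation from the mean of the other 5 total RNA libraries, fell with transcript length (Spearman's rho = -0.56 over 13529 coding genes). In those 5 rho was 0.20 to 0.37, but each was set against a mean that includes this library, so their values depend on it. Among ribosome-associated libraries, set against each other in the same way, control replicate 1 had a rho of -0.43, and the others -0.00099 to 0.16. Results that rest on these libraries are given with and without them.

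All 38 genes passed the filter on low counts in every comparison. Compared per kilobase of transcript, which allows genes to be ranked, Ndufa4 was highest in total RNA of controls, at 151 ± 9.19 CPM per kb (SD, n = 3). Ndufa7, an accessory subunit of the peripheral arm, followed at 104 ± 11.8, a gap to Ndufa4 larger than these spreads. Ndufb2, a small subunit of the membrane arm, was lowest at 1.07 ± 0.189, but this level depends on the isoform: its main transcripts are 4371 and 455 bases long, and with the shorter one it was 10.3 ± 1.82. It was the lowest of the 38 either way. Within a group the members were steady except in total RNA of HTT-deleted cells: their median coefficient of variation was 5.24% in total control, 10.8% in ribosome-associated control and 7.80% in ribosome-associated HTT-deleted RNA, but 55.5% in total HTT-deleted RNA.

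Summed over the 38 genes, total RNA held 1697, 1773 and 1774 CPM in controls and 3709, 1662 and 1646 in HTT-deleted replicates 1 to 3. The first HTT-deleted library was thus far above all controls and the other two slightly below them. Ribosome-associated RNA held 2684, 2367 and 2291 CPM in controls and 2333, 2443 and 2231 in HTT-deleted cells, ranges that overlapped. In the HTT-deleted total library of replicate 1, 36 of 38 genes exceeded every other library of either fraction. Their median ratio to the mean of the other 5 total RNA libraries, over all 38, was 2.32. The share of all genes that were highest in this library was not counted, so the number is not set against other genes. The remaining 2 of the 38 genes, Ndufs1 and Ndufb2, were below all 5 other total RNA libraries.

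**Figure D1:**
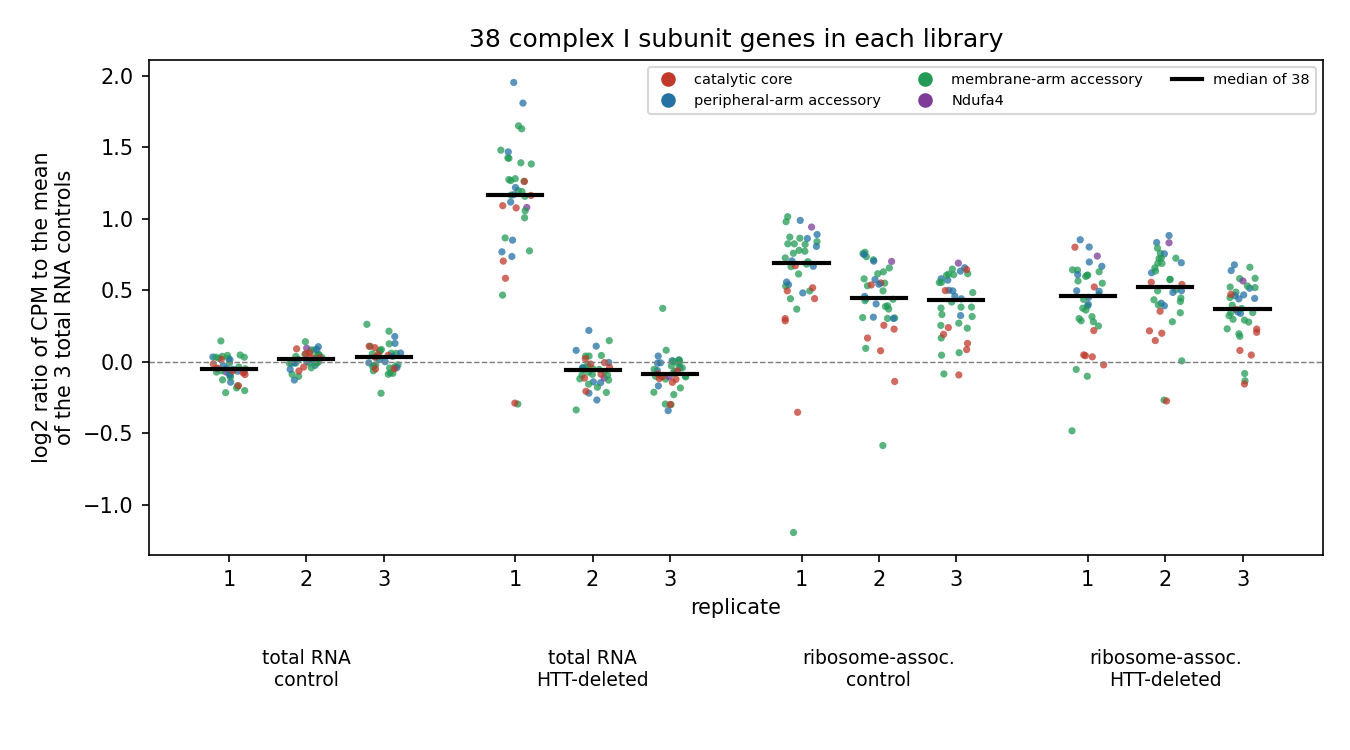
Each point is the log2 ratio of a gene's CPM in 1 library to its mean in the 3 total RNA controls (y axis), for 38 complex I genes in 12 libraries (x axis, by group and replicate), coloured by place in the complex, with black bars at the medians. Total HTT-deleted replicate 1 sits apart from the other 5 total RNA libraries, which lie near 0, and the 6 ribosome-associated libraries all lie above 0 in the median.

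In total RNA, no complex I gene passed the test between HTT-deleted and control cells (0 of 38), and neither did any of the 14759 genes tested (0%, by edgeR's quasi-likelihood test with the p adjusted after Benjamini-Hochberg and called under 0.05). Unadjusted, 44 genes but no member had a p under 0.05. No member was called by DESeq2, which called 0.0203% of genes lower and 0% higher, or by limma voom (0%). The fitted log2 fold changes were above 0 for 37 of 38 members, with a median of 0.50 against 0.013 over all genes. This rested on 1 library: the median difference by replicate pair was 1.20, -0.080 and -0.075, and without total HTT-deleted replicate 1 the median of the members was -0.061, with 8 of 38 above 0. No member had HTT-deleted values all above or all below the controls, as 1.7% and 2.56% of genes did.

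Ndufa5, an accessory subunit of the ubiquinone-reducing module, had the largest fold change. It was at 14.3, 15.8 and 17.3 CPM in controls and at 55.3, 18.4 and 15.2 in HTT-deleted cells. Only replicate 1 stood out and the other values overlapped, so its log2 fold change of 0.96 ± 0.51 (SE; edgeR adjusted p = 0.98) became 0.098 ± 0.14 without that library. Ndufa2, an accessory subunit of the NADH-oxidizing module with a thioredoxin-like fold, was at 44.2, 46.3 and 46.8 CPM in controls and at 177, 39.3 and 36.1 in HTT-deleted cells. Its other HTT-deleted values lay below every control, so the log2 fold change turned from 0.94 ± 0.64 to -0.27 ± 0.076 without replicate 1. Ndufb7, a membrane-arm subunit facing the intermembrane space, was at 40.5, 37.1 and 41.9 CPM in controls and at 125, 35.7 and 39.1 in HTT-deleted cells, with the same high first library and otherwise overlapping values. Its log2 fold change was 0.79 ± 0.51, and -0.080 ± 0.086 without that library.

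At the other end was Ndufs1, the core subunit that carries several of the iron-sulfur clusters and one of the longest transcripts (2661 bases). It was at 92.2, 87.1 and 93.9 CPM in controls and at 74.5, 92.5 and 83.9 in HTT-deleted cells, lowest in the library where most members were highest. Its log2 fold change was -0.095 ± 0.13. Ndufb2 (0.13 ± 0.26) and Ndufa10, an accessory subunit related to nucleoside kinases (0.17 ± 0.20), had the next smallest values, and their groups overlapped. Among the core subunits, Ndufv1, Ndufs3, Ndufs7, Ndufs8 and Ndufv2 lay between 0.27 for Ndufv1 and 0.52 for Ndufv2, an iron-sulfur protein of the NADH-oxidizing module, and these 5 were below 0 without replicate 1, from -0.24 for Ndufs7 to -0.043 for Ndufv2.

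The members' values moved with transcript length in this comparison. Across the 38 genes, the log2 fold change had a Spearman's rho of -0.53 with transcript length, and across 14757 genes one of -0.44. These are descriptions over genes that share libraries. With offsets that remove each library's length trend the members' median was 0.12. Of the subunits encoded by mitochondrial DNA, mt-Nd1, mt-Nd2, mt-Nd4 and mt-Nd5 were lowest in the same library, while mt-Nd3 and mt-Nd6, at far lower levels, were highest in it. The 7 genes summed to 2765 CPM in total HTT-deleted replicate 1 and to 4739 to 7542 in the other 5 total RNA libraries. These genes were named after their values were seen, and mt-Nd5 was at 347 CPM there and at 1562 to 2617 elsewhere. The 10 macrophage markers, none at 0, summed to 2502, 595 and 1477 CPM in total RNA of controls and to 6090, 1391 and 2272 in HTT-deleted replicates 1 to 3, higher in each of the 3 pairs, though none passed the test with or without the replicate block. With the block no gene at all passed. In that edgeR fit 350 of 14759 genes had an unadjusted p under 0.05, among them 9 of these 10 markers. Their part in the members' values was not tested.

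**Figure D2:**
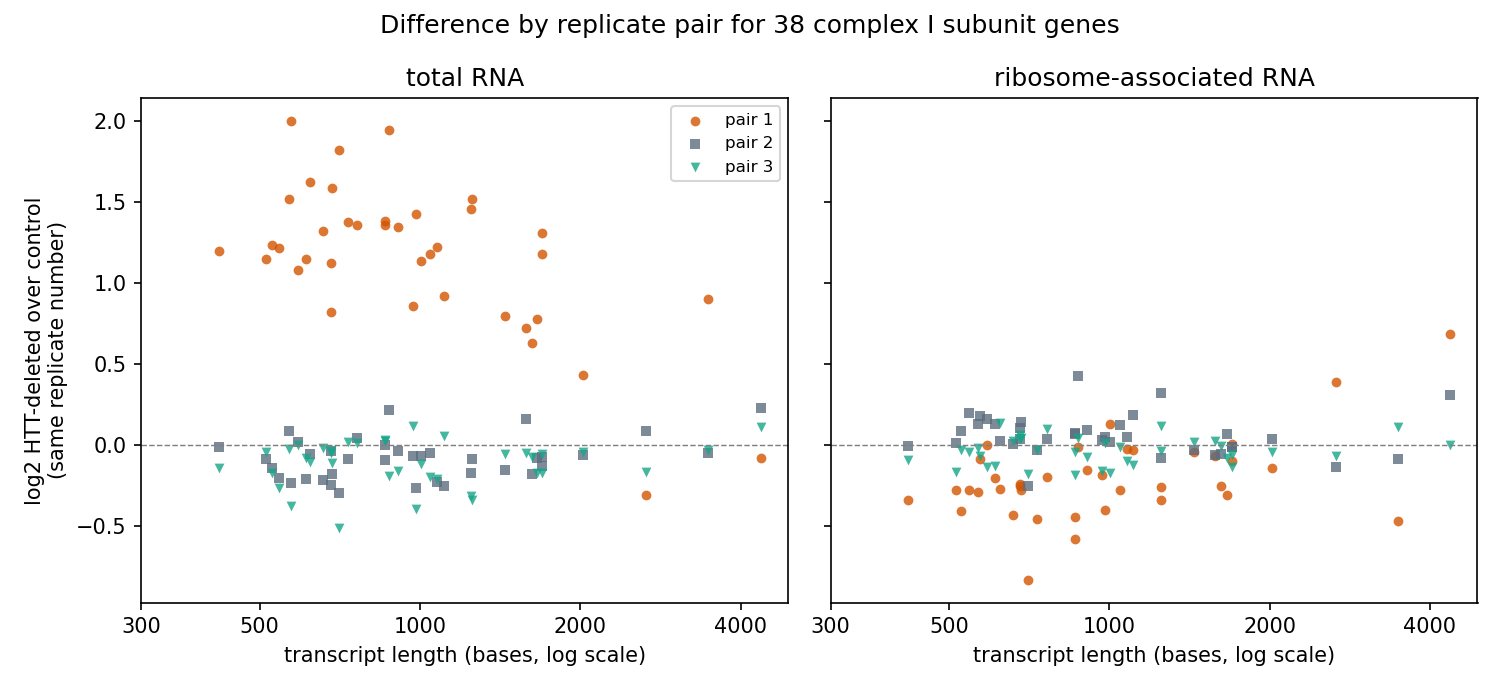
The log2 difference between HTT-deleted and control libraries of the same replicate number (y axis) is plotted against transcript length in bases (x axis, log scale) for 38 complex I genes, in total RNA (left) and ribosome-associated RNA (right). In total RNA, pair 1 has a median of 1.20 with its lowest values among the longer transcripts, while pairs 2 and 3 have medians of -0.080 and -0.075.

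The authors' deposited table lists 10 of 38 members as higher in total RNA of HTT-deleted cells at a false discovery rate under 0.05 (26.3%, against 2.29% of the 16974 genes in it) and none as lower (2.69% of genes). The 10 were Ndufa2, Ndufa5, Ndufa6, Ndufa8, Ndufb1, Ndufb3, Ndufb7, Ndufb10, Ndufc2 and Ndufs6, and the median log2 fold change of all 38 in that table was 0.35. The largest in the authors' deposited table was Ndufa5, at 0.69 with a false discovery rate of 0.0047. From the counts, these 10 genes had pair differences of 1.08 (Ndufa6) to 2.00 (Ndufa2) in replicate 1. In replicates 2 and 3 they lay between -0.37 (Ndufa2) and 0.21 (Ndufa5), so a rise of the size seen in replicate 1 was measured in 1 of 3 pairs. These are differences of TMM-scaled counts, not the authors' fitted values. Without total HTT-deleted replicate 1, their fitted log2 fold changes ran from -0.27 for Ndufa2 to 0.098 for Ndufa5, and edgeR called none of the genes tested, with 1 member at an unadjusted p under 0.05.

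On ribosomes, HTT-deleted and control cells did not differ in any complex I gene by the same test (0 of 38; 0% of 14588 genes called, and 110 genes but no member at an unadjusted p under 0.05). DESeq2 called 0.00685% of genes lower and limma voom 0%, neither with a member. The members' median log2 fold change was -0.045, against -0.0010 over all genes, and 30 of 38 were below 0. By replicate pair the medians were -0.25, 0.046 and -0.037, so only the first pair was clearly below 0, and without ribosome-associated control replicate 1 the median was 0.020. A block for the replicate number gave 1.69% of genes and still no member. In the authors' deposited table for this fraction, 0 of 38 members passed, against 4.21% of 16235 genes.

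Ndufb9, a membrane-arm subunit with an LYR motif, had the lowest value on ribosomes. It was at 20.1, 16.9 and 12.1 CPM in controls and at 11.3, 14.2 and 10.7 in HTT-deleted cells, so that 1 control lay within the HTT-deleted range. Its log2 fold change was -0.43 ± 0.21 (edgeR adjusted p = 1.00, and 0.17 with the replicate block), and 19.5% of its exonic bases overlap Gm49356 on the same strand, so its counts are uncertain. Ndufb1 (-0.23 ± 0.15) and Ndufb10 (-0.18 ± 0.12) followed, and Ndufb2 (0.28 ± 0.31), Ndufa5 (0.15 ± 0.14) and Ndufs1 (0.068 ± 0.11) had the highest values. The 7 core subunits lay within -0.11 (Ndufs7) and 0.068 (Ndufs1). Macrophage markers on ribosomes summed to 3948, 917 and 2123 CPM in controls and to 7047, 2196 and 3011 in HTT-deleted replicates 1 to 3, higher in each of the 3 pairs. None of the 10 passed without the block. With it 7 of 10 were called higher (lowest edgeR adjusted p = 0.00055, for Ptprc), against 1.69% of genes called in either direction and no complex I gene. Their part in the members' values was not tested.

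Whether the HTT-related difference was unlike in the 2 fractions was tested as an interaction over all 12 libraries. No member passed (0 of 38), nor did any of 15574 genes (0%), with 85 genes and no member at an unadjusted p under 0.05, and 0% of genes called by DESeq2 or limma voom. The members' median interaction was -0.50 on the log2 scale, with the lowest values for Ndufb9 (-1.08 ± 0.64), Ndufb1 (-0.88 ± 0.46) and Ndufa2 (-0.87 ± 0.68). Ndufs1 (0.19 ± 0.17) and Ndufb2 (0.17 ± 0.41) were the 2 above 0, and Ndufa10 (-0.18 ± 0.20) came next. The median was 0.030 without total HTT-deleted replicate 1, with 24 of 38 members above 0.

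Within control cells, complex I transcripts took a larger share of ribosome-associated than of total RNA. Of the 38 genes, 28 were higher on ribosomes (73.7%) and none lower, while 10% of 14990 genes were higher and 15% lower. The members' median log2 fold change was 0.52, against 0.017 over all genes, and the 28 ran from 0.33 for Ndufa10 to 0.80 for Ndufs6. In 33 genes all 3 ribosome-associated values exceeded all 3 total RNA values, and in 1 gene all were below (19.9% and 23.7% of genes). The fractions came from the same suspensions, and with a block for the replicate number 33 members were higher and 2 lower, Ndufs1 and Ndufb2, against 24.3% and 25.9% of genes.

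The groups of subunits differed in their counts, though this difference was not tested. All 9 accessory subunits of the peripheral arm were higher, 16 of 21 of the membrane arm, Ndufa4, and 2 of the 7 core subunits. Ndufs6, a zinc-binding subunit that joins late in assembly, was at 28.4, 29.2 and 30.7 CPM in total RNA and at 58.4, 49.5 and 46.4 on ribosomes. The fractions were well separated, with a log2 fold change of 0.80 ± 0.11 (edgeR adjusted p = 0.0042). Ndufa1, a small membrane-arm subunit encoded on the X chromosome, was at 27.2, 28.4 and 26.5 CPM in total RNA and at 53.9, 46.5 and 41.7 on ribosomes, also without overlap (0.78 ± 0.11; edgeR adjusted p = 0.0052). Ndufa4 was at 87.7, 98.5 and 90.4 CPM in total RNA and at 177, 150 and 149 on ribosomes, again without overlap (0.78 ± 0.10; edgeR adjusted p = 0.0040).

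Among the core subunits, Ndufs8 and Ndufv2, both iron-sulfur proteins, passed. Ndufs8 was at 36.4, 38.8 and 39.0 CPM in total RNA and at 60.6, 55.2 and 59.5 on ribosomes, with a log2 fold change of 0.61 ± 0.080 (edgeR adjusted p = 0.0040). Ndufv2 was at 60.2, 63.5 and 58.7 CPM in total RNA and at 87.0, 89.0 and 85.8 on ribosomes (0.51 ± 0.072; edgeR adjusted p = 0.0047). The spread of both was small and their fractions did not overlap. Ndufs3 (0.32 ± 0.10), Ndufs7 (0.27 ± 0.12) and Ndufv1, which binds NADH and the flavin (0.16 ± 0.092), did not pass. With the replicate block Ndufs3 (edgeR adjusted p = 0.0099) and Ndufs7 (0.045) also passed as higher.

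The lowest values belonged to Ndufb2 and Ndufs1, which are 2 of the 3 longest transcripts only if Ndufb2 is taken by its transcript of 4371 bases and not by that of 455. Ndufb2 was at 4.03, 4.40 and 5.61 CPM in total RNA and at 2.05, 3.12 and 4.41 on ribosomes, with overlapping fractions and a log2 fold change of -0.54 ± 0.31 (edgeR adjusted p = 0.24, and 0.018 with the replicate block). Ndufs1 was at 92.2, 87.1 and 93.9 CPM in total RNA and at 71.3, 82.8 and 85.4 on ribosomes, where every value was below the total RNA values (-0.20 ± 0.088; edgeR adjusted p = 0.15, and 0.046 with the replicate block). Also among the 10 that did not pass were Ndufab1, the mitochondrial acyl carrier protein, and Ndufb6, Ndufb9 and Ndufc1.

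**Figure D3:**
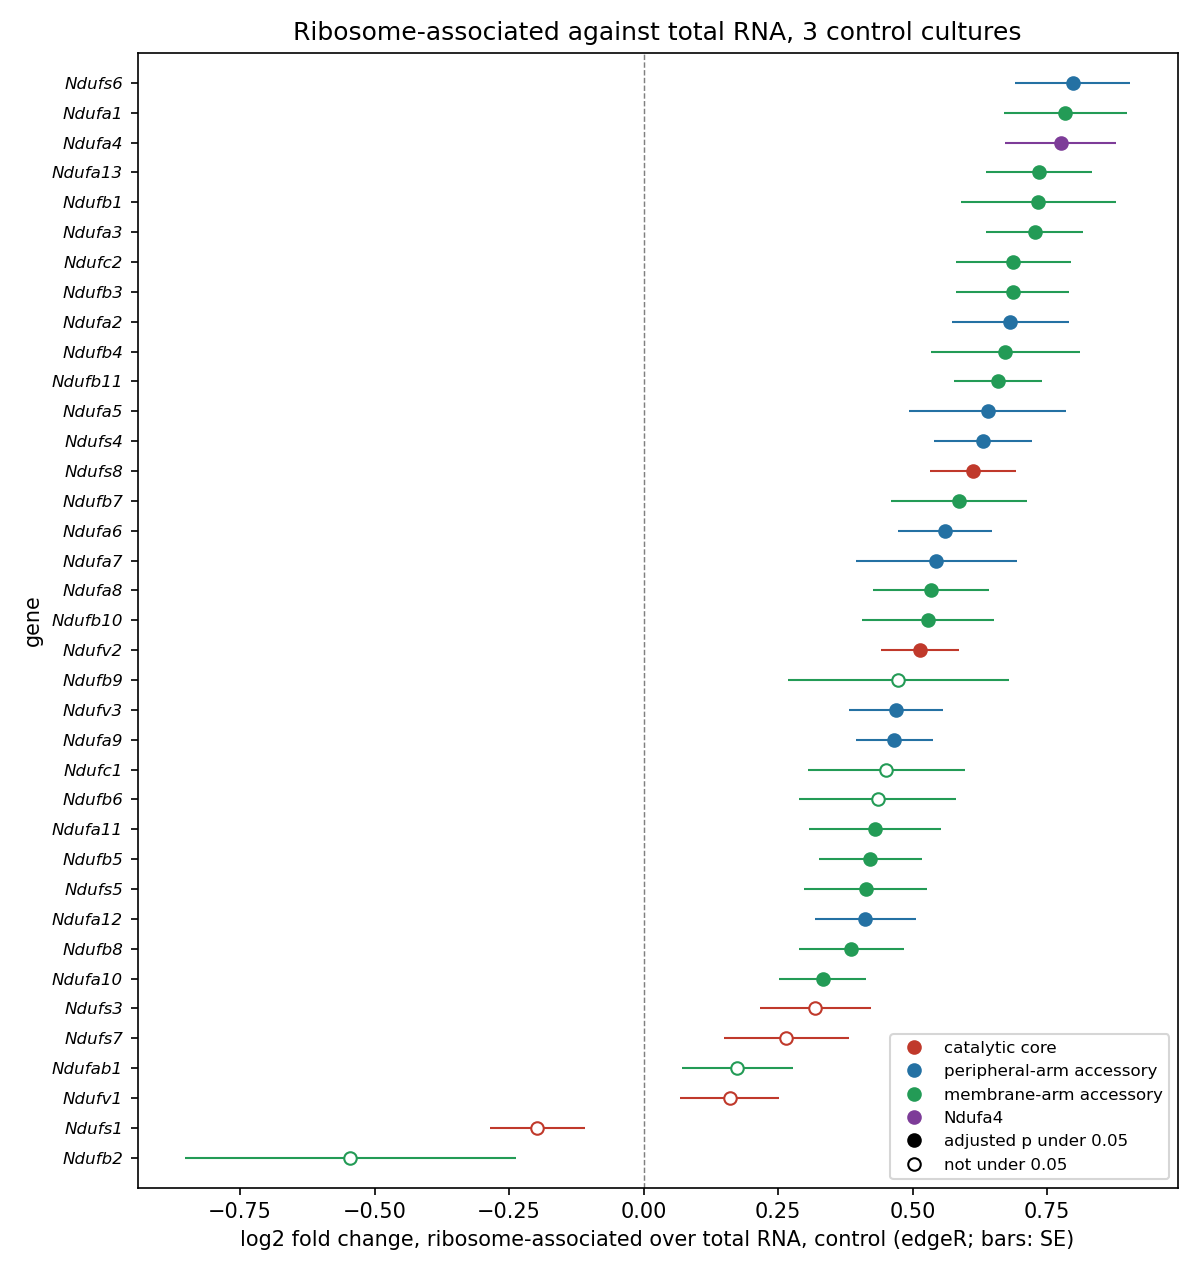
Points are edgeR log2 fold changes of ribosome-associated over total RNA in the 3 control cultures (x axis, bars 1 SE) for 37 of the complex I genes (y axis), coloured by place in the complex and filled where the adjusted p was under 0.05. The 28 filled points lie between 0.33 and 0.80, and Ndufs1 and Ndufb2 lie below 0.

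Transcript length moved with this result too. The log2 fold change had a Spearman's rho of -0.57 with transcript length over the 38 genes and of -0.44 over 14987 genes, as a description. With the length trend of each library removed by offsets, 14 members were higher (8.01% of genes) and the median was 0.21. With the block as well, 22 were higher and Ndufb2 was the 1 lower (26.3% and 21.6% of genes). Without total control replicate 1, 17 members were higher (2.53% of genes), and without ribosome-associated control replicate 1, 24 were (6.26%). The median was 0.51 and 0.44 in these fits. Of the macrophage markers 7 of 10 were above 0 in this comparison and none passed. With the replicate block 8 were above 0 and 7 were called higher, against 24.3% of genes (lowest edgeR adjusted p = 5.1e-06, for C1qa). Their part was not tested.

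In HTT-deleted cells the same comparison of fractions called no member with all libraries (0 of 38; 0% of 14627 genes higher, 0.896% lower; no member at an unadjusted p under 0.05). DESeq2 called 0.827% of genes higher and 5.09% lower and limma voom 0.00684% and 0.937%, none of them a member. The pair medians were -0.74, 0.62 and 0.46, and the median log2 fold change was -0.0080. The lowest fitted values were those of Ndufb9 (-0.61 ± 0.54), Ndufb2 (-0.38 ± 0.27) and Ndufab1 (-0.31 ± 0.27), and the highest those of Ndufa4 (0.31 ± 0.34), Ndufa9, an accessory subunit beside the ubiquinone site (0.19 ± 0.25), and Ndufs8 (0.18 ± 0.33). Without total HTT-deleted replicate 1, 29 members were higher (76.3%, against 7.95% of 15141 genes) and none lower (11.9% of genes), with a median of 0.54.

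Without total HTT-deleted replicate 1, a library singled out after its values were seen, the values resembled the control cells gene by gene. The 2 fits use different libraries, and 26 genes were called in both, which is 92.9% of the 28 in controls and 89.7% of the 29 in HTT-deleted cells. Ndufa8 and Ndufb8 were called only among controls and Ndufs3, Ndufs7 and Ndufc1 only in HTT-deleted cells, a difference in calls that was not itself tested. Across the 38 genes Pearson's r between the 2 conditions was 0.93 and Spearman's rho 0.85, as a description of genes that share depth and length effects. Neither was computed with all HTT-deleted libraries. The largest gap was that of Ndufa2, whose value was 0.29 higher in HTT-deleted cells. With pairs 2 and 3 alone and the replicate block, a setting chosen after the data were seen, 35 members were higher and 2 lower in HTT-deleted cells (27.7% and 27.9% of genes).

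**Figure D4:**
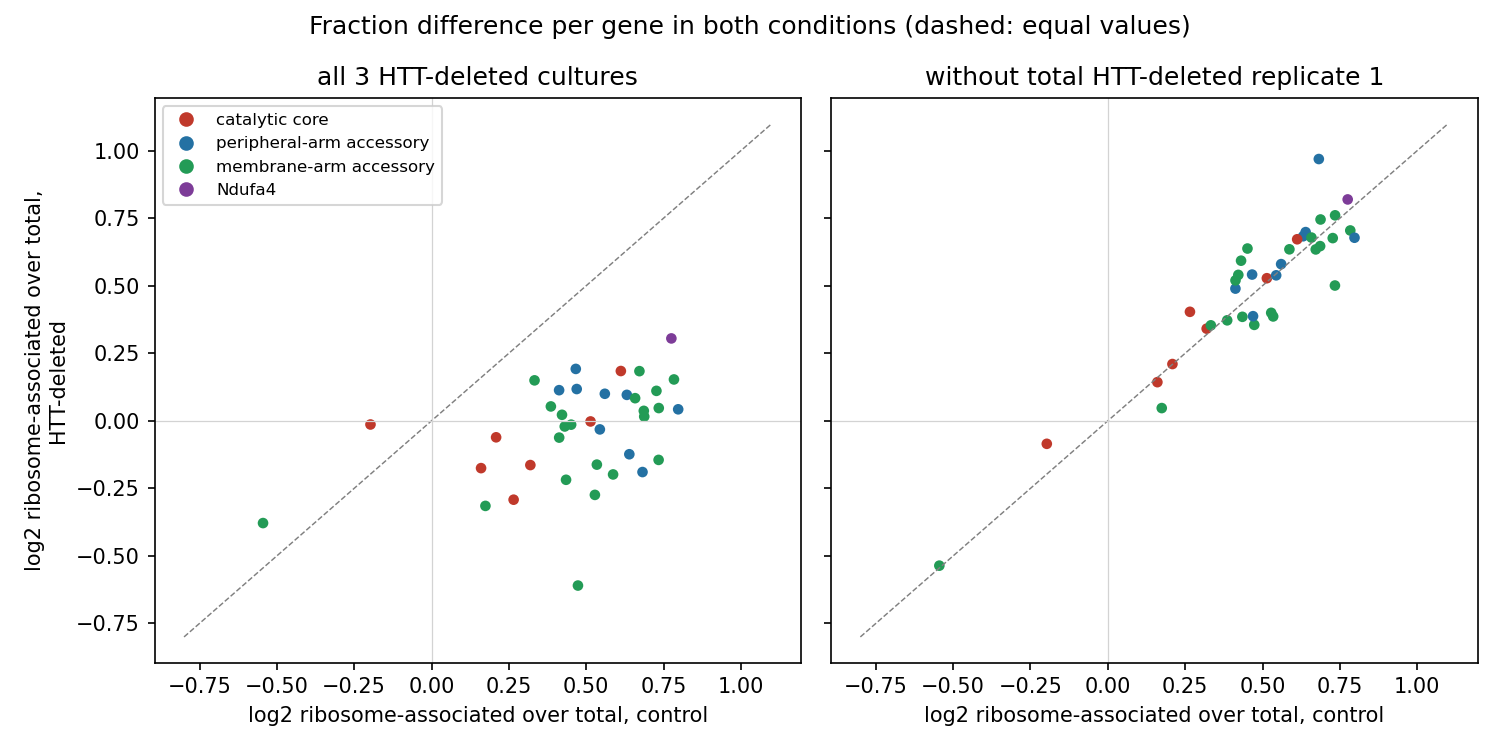
The log2 fold change of ribosome-associated over total RNA in HTT-deleted cells (y axis) is plotted against that in control cells (x axis) for 38 complex I genes, with all libraries (left) and without total HTT-deleted replicate 1 (right). On the left the points lie mostly below the dashed line of equal values, and on the right they scatter around it, with r = 0.93.

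The other genes of the pathway were followed from fixed lists. Of 19 assembly factors counted, 6 were higher and 1 lower on ribosomes in control cells, where 10% of all genes were higher and 15% lower. Their median log2 fold change was 0.26. Ndufaf2, which binds a late assembly intermediate, had the smallest p (0.53 ± 0.10; edgeR adjusted p = 0.013), and the one that was lower was Foxred1, named after its values were seen (-0.42 ± 0.11; edgeR adjusted p = 0.027). None of the 6 subunits encoded by mitochondrial DNA that were tested passed there (median 0.092), where mt-Nd6 had the smallest p (0.36 ± 0.16). With the replicate block 2 of the 6 were called higher, against 24.3% of genes, and mt-Nd4 had the smallest p (0.49 ± 0.11; edgeR adjusted p = 0.0031). Of 9 regulators of mitochondrial biogenesis, Pprc1, a coactivator of the PGC-1 family, was lower on ribosomes (-0.69 ± 0.16; edgeR adjusted p = 0.021), and no other passed without the block. With the replicate block 1 regulator was called higher and 2 lower, and 10 assembly factors were called higher and 1 lower. Of all genes, 24.3% were called higher and 25.9% lower with it. Between HTT-deleted and control cells no gene of these pathway lists passed in either fraction, with or without the block. The smallest p values of the assembly factors were those of Timmdc1 in total RNA (0.36 ± 0.20) and Tmem126a on ribosomes (-0.19 ± 0.11). Of the paralogs outside the rule, only Ndufa4l2 had enough counts to be tested, and it passed in none of the comparisons.

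Counting limits some of these genes. Besides Ndufb9, Ndufb8 (4.26%, with Gm20538) and Ndufb2 (2.58%, with Gm42420) share exonic bases with another gene on the same strand. Ndufs3 (39.7%), Ndufb4 (37.0%) and Ndufs5 (31.1%) share that part of their 50-base stretches with other annotated genes, so reads there could be split or dropped. Ndufb6 and Ndufa13 overlap Smim27 and Tssk6 on the opposite strand in 39.0% and 30.0% of exonic bases. The libraries kept strand, but whether the counting used it is not stated in the labels.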

How the data were processed

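RNA of 12 libraries, in 4 groups of 3, was sequenced after directional library preparation, per the labels' protocols. The deposited counts are whole reads per Ensembl gene, 1 file per library, and STAR 2.7.2b, HTSeq 0.11.1, FastQC and edgeR are named in the submitters' processing notes with build GRCm38. Which annotation release and strand setting HTSeq used is unstated in the labels. The authors also deposited 1 table of HTT-deleted against control comparisons, with p-values and false discovery rates, a score (the likelihood ratio) and, on the log2 scale, fold changes and mean CPM. Its file name refers to edgeR with RUVSeq factors, and no other account of its method was used.

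From the counts, without the 5 HTSeq summary entries, each comparison was fitted across all genes with edgeR 4.0.16 in R 4.3.3 (filterByExpr, TMM, quasi-likelihood F test, Benjamini-Hochberg adjustment over all genes tested, threshold 0.05). Two-group comparisons used only the libraries of their groups, and the interaction all 12. Standard errors were derived from the fold change and its F statistic. CPM values were computed here, scaled by TMM. Groups came from the sample labels. Sequences came from RefSeq (GRCm38.p6), and gene lengths and overlaps from GENCODE M21. The fits were run on simulated counts with fold changes set in advance, and a length trend in a library was simulated only for the length offsets. These counts held no paired cultures and no mixture of cells, so the runs do not bear on such limits.

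Total and ribosome-associated RNA of a culture came from the same suspension, per the labels' protocols. Same-numbered libraries deviated together in all group pairs compared (correlations of 0.227 to 0.737 over 15574 genes), so the replicate number was taken to pair them and was used as a block in an alternative fit. Other alternatives were RLE scaling, no filter, a filter of 5 CPM in 3 libraries, DESeq2 1.42.0, limma 3.58.1 (voom), offsets for transcript length, and leaving out each library.

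The members, the gene lists and the tests were chosen with earlier results of these data known. Named with values are the core subunits, the 3 members with the largest and the 3 with the smallest log2 fold change in each comparison, those highest and lowest per length, and of each related list the gene with the smallest p. Values of 1 gene that this rule names are not reported here. The searches for motifs, start sites and neighbours were added after the results were seen. Intervals and p-values cover the spread between these libraries, at 33 or more counts per member and library.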

Additional observations from a re-analysis of the deposited data

How the results depend on the processing

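The number of members called between HTT-deleted and control cells was 0 in both fractions and in the interaction under every alternative run. Signs turned mainly without total HTT-deleted replicate 1 and for values close to 0, and the cause was not tested. The setting with pairs 2 and 3 alone and the replicate block was added after the data were seen. Values are log2 fold changes unless called a number of genes.

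Between HTT-deleted and control cells in total RNA, 3 genes were called with DESeq2, 1 with no filter and 94 with pairs 2 and 3 alone. With these pairs alone the sign turned for Ndufa10 (-0.043), Ndufb7 (-0.072), Ndufa2 (-0.30), Ndufs3 (-0.12), Ndufs7 (-0.32), Ndufs8 (-0.086), Ndufv1 (-0.12) and Ndufv2 (-0.055). When each library was left out in turn, the members' median ranged from -0.061 to 0.74. The ranges were -0.013 to 0.28 for Ndufb2, -0.056 to 0.28 for Ndufa10, -0.080 to 1.09 for Ndufb7 and -0.27 to 1.31 for Ndufa2. They were -0.067 to 0.70 for Ndufs3, -0.24 to 0.77 for Ndufs7, -0.050 to 0.68 for Ndufs8, -0.077 to 0.42 for Ndufv1 and -0.043 to 0.75 for Ndufv2.

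On ribosomes, the same comparison called 247 genes with the replicate block, 278 with the block and length offsets, 1 with DESeq2 and 14 with pairs 2 and 3 alone. Ndufs8 turned with the block (-0.0055) and with limma voom (-0.0048). With pairs 2 and 3 alone Ndufs1 (-0.096), Ndufs3 (0.059), Ndufs7 (0.034) and Ndufs8 (-0.077) turned. With each library left out, Ndufs1 ranged from -0.022 to 0.14, Ndufs3 from -0.10 to 0.044, Ndufs8 from -0.10 to 0.072 and Ndufv2 from -0.066 to 0.017.

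In the interaction, pairs 2 and 3 alone turned Ndufb9 (0.21), Ndufa2 (0.36), Ndufa10 (0.043), Ndufb2 (-0.038), Ndufs1 (-0.065), Ndufs3 (0.17), Ndufs7 (0.36), Ndufs8 (0.0054) and Ndufv1 (0.11). Over the libraries left out, Ndufa2 ranged from -1.26 to 0.30, Ndufa10 from -0.29 to 0.030 and Ndufb2 from -0.051 to 0.48. Ndufs3 ranged from -0.72 to 0.030, Ndufs7 from -0.85 to 0.15, Ndufs8 from -0.65 to 0.072 and Ndufv2 from -0.76 to 0.024.

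Between the fractions in controls, the replicate block called 7524 genes with 2 members lower, and the block with length offsets 7185 genes with 1 member lower and a members' median of 0.21. Length offsets alone called 14 members higher, with a median of 0.21. Ndufv1 and Ndufs7 turned with length offsets (-0.0089 and -0.048) and with these and the block (-0.0095 and -0.047). Leaving out each library gave 1507 to 3251 genes and 17 to 27 members higher. Among members named with values, the block changed the calls of Ndufs1, Ndufs3, Ndufs7 and Ndufb2 here, and no other call.

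Between the fractions in HTT-deleted cells, 266 genes were called with length offsets, 514 with these and the block, 208 with no filter, 86 with the filter of 5 CPM in 3 libraries and 866 with DESeq2. Ndufv2 turned with length offsets (0.040), the block (0.12), both (0.092), limma voom (0.12) and no filter (0.021), and Ndufs1 with no filter (0.021). Pairs 2 and 3 alone called 8333 genes, with 35 members higher and 2 lower. They turned Ndufb9 (0.39), Ndufab1 (0.11), Ndufs3 (0.37), Ndufs7 (0.46), Ndufv1 (0.18) and Ndufv2 (0.50). Leaving out each library gave 0 to 3008 genes and 0 to 29 members higher. The ranges were -0.93 to 0.36 for Ndufb9, -0.47 to 0.047 for Ndufab1, -0.023 to 0.67 for Ndufs8 and -0.094 to 0.070 for Ndufs1. They were -0.39 to 0.34 for Ndufs3, -0.57 to 0.40 for Ndufs7, -0.31 to 0.14 for Ndufv1 and -0.23 to 0.53 for Ndufv2.

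Depth limits Ndufb2 most, with 33 counts in 1 library. In total RNA of HTT-deleted cells, differences within the spread between libraries were not detectable.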
